A study of Mus musculus with 8 samples.

Results

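Glucocorticoid-responsive genes were followed in the thoracic annulus fibrosus, the fibrocartilage ring of the intervertebral disc, of Black 6 mice. The 9 genes are the receptor Nr3c1, the feedback genes Fkbp5 and Tsc22d3, the transcription factors Zbtb16 and Klf9, the kinase Sgk1, the mTORC1 inhibitor Ddit4, and the metallothioneins Mt1 and Mt2. They were chosen by name, with earlier results of these data known, out of 22180 genes read on the arrays. Counts and medians of the 9 beside those of all genes therefore describe them and are no test of the set. The value of a gene was that of its probe set with the highest mean over the 8 arrays, and each of the 9 had a single such probe set. All 9 passed the filter on low values, and the mean level used for that choice is not tested here. The mice were WT or ENT1-null, the latter with exons 2 to 4 of Slc29a1, the gene for equilibrative nucleoside transporter 1, deleted. Both genotypes were taken at 2 and at 6 months of age, which gave 4 groups of 2 Affymetrix arrays, and each array held RNA of a pool of 5 to 6 annulus tissues. All groups were kept on a 12 hour light and dark cycle, and the labels name no hormone or other agent. The labels do not say in which cells or at what age the deletion acts, nor whether the 2 pools of each group shared mice, so that p-values measure the spread between pools only, which may be technical.

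Glucocorticoids, corticosterone in mice, bind the receptor that Nr3c1 encodes. The receptor is held ready by chaperones, moves to the nucleus with its ligand and binds DNA at glucocorticoid response elements. The genes it switches on include brakes on its own action, such as Fkbp5, and they are used as a readout of hormone exposure in many tissues. Circulating corticosterone follows the time of day and rises with handling, so single samples can stand high or low. No source used here gives the hour or manner of tissue collection.

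The deposited values are log2 levels made by robust multi-array averaging (RMA). Array medians lay between 6.77 and 6.82, and r between the arrays of a group, across genes, was 0.983 to 0.984 (genes are not independent replicates). Slc29a1 checked the genotype: it was 10.71 and 10.69 in 2 month WT, 9.21 and 9.36 in 2 month ENT1-null, 10.34 and 10.43 in 6 month WT, and 8.90 and 8.80 in 6 month ENT1-null. These values are of 1 of its 2 probe sets, the one with the higher mean. It was 2.66-fold lower in ENT1-null at 2 months and 2.89-fold lower at 6 months. Signal thus remained in ENT1-null, above the level of the filter on low values (6.21). All 16 annulus and cartilage markers listed were read, with a mean level between 9.88 and 10.8 on every array. Markers of neutrophils (16 genes) and erythroid cells (9 of 12 listed) were also present, and their values stand beside the genotype results. The level of a bulk sample cannot tell fewer cells of a type from less RNA per cell. Each log2 difference stands with its SE from limma (n = 2 against 2 arrays unless stated), and called means an adjusted p below 0.05 over 15526 genes tested.

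Promoters were read from RefSeq (GRCm38.p6) for 7 of the 9 genes. No window of Zbtb16 or Nr3c1 was searched, so nothing is said of their promoters. The 250 bases before each of 14 transcription starts were searched on both strands for AGAACA and TGTTCT with 3 bases between them, the palindromic glucocorticoid response element, and for TGCACNC and TGCGCNC, the cores of the metal response element. The glucocorticoid element's letters were found in 1 member window, at the fifth of 6 Sgk1 starts, beginning 189 bases before it, against 3 of 32817 windows of all genes (0.00914%). Of the 14 member windows, a metal element core was found in 1 each of Mt1 (1 match), Mt2 (3 matches) and Ddit4 (1 match). Counted by window, the members thus held a core about as often as all windows did (21.4%). That count leans on Sgk1 with 6 windows and Tsc22d3 with 3, none with a core, while the only window of Mt1 and of Mt2 held one. The 3 sequences below are shown because Sgk1 holds the receptor's element and because Mt1 and Mt2, neighbours on chromosome 8 with no gene listed between them, had centred patterns a root mean square distance of 0.24 (log2) apart over the 8 arrays. Each is on the plus strand, 5′ to 3′, with the matched letters in capitals. A match of letters is a description and not a measured binding site, and a window without a match says nothing of elements farther away.
Sgk1, chr10:21993640-21993889: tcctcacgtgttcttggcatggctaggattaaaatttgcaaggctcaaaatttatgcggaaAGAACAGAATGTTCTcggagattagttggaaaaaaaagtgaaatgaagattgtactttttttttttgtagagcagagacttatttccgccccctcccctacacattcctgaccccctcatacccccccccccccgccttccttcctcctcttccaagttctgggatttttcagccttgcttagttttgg
Mt1, chr8:94178839-94179088: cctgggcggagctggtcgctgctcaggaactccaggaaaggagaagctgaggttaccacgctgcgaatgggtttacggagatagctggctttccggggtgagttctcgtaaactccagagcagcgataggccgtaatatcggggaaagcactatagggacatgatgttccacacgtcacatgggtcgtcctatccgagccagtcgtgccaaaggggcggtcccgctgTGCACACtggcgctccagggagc
Mt2, chr8:94172368-94172617: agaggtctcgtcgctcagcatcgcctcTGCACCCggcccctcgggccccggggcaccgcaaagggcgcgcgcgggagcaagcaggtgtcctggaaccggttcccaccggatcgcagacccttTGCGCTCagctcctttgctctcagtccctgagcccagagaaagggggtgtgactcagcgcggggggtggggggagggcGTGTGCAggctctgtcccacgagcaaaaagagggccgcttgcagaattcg

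Nr3c1, the glucocorticoid receptor, was at 9.91 and 9.98 (log2) in 2 month WT, 9.87 and 9.94 in 2 month ENT1-null, 10.12 and 10.01 in 6 month WT, and 9.89 and 9.72 in 6 month ENT1-null. Its 4 group means spanned a narrower range than those of the other members, and its lowest array was one of 6 month ENT1-null. ENT1-null minus WT was −0.04 ± 0.09 at 2 months (limma adjusted p = 0.856) and −0.25 ± 0.09 at 6 months (limma adjusted p = 0.0657). At 6 months both ENT1-null arrays lay below both WT arrays, and the difference passed when quantile normalization was applied again (−0.36, adjusted p = 0.0163) or with eBayes trend and robust (−0.25, adjusted p = 0.0486).

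Zbtb16, a zinc finger transcription factor also known as PLZF, is among the genes most strongly induced by glucocorticoid in many cell types. It was at 11.26 and 10.91 in 2 month WT and at 9.44 and 9.04 in 2 month ENT1-null. At 6 months it was at 10.11 and 10.45 in WT and at 8.58 and 8.35 in ENT1-null. The order was the same at both ages, and every WT array stood above every ENT1-null array. It fell by 1.84 ± 0.19 in ENT1-null at 2 months (3.58-fold, limma adjusted p = 0.0285) and by 1.81 ± 0.19 at 6 months (3.50-fold, limma adjusted p = 0.000537). The ages differed by 0.03 ± 0.26 (limma adjusted p = 0.958), so that no difference between the ages was detected. Across both ages, in a fit of genotype plus age, it fell by 1.82 ± 0.13 (4 against 4 arrays, limma adjusted p = 0.00296). The 6 month and the pooled fall passed under every alternative run. The 2 month call was lost on leaving out replicate 1 of 2 month WT (−1.66), replicate 1 (−2.04) or replicate 2 (−1.64) of 2 month ENT1-null, and, at an unchanged −1.84, either array of 6 month ENT1-null. Among settings other than a replicate block, it was also lost when every probe set was tested or when only the 2 month arrays were fitted, and the adjusted p lay between 0.00184 and 0.216 over all alternatives.

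Klf9, a Krüppel-like transcription factor that the receptor induces directly, stepped down through the groups. It was at 10.37 and 10.44 in 2 month WT, 9.86 and 9.25 in 2 month ENT1-null, 9.21 and 9.71 in 6 month WT, and 8.75 and 8.76 in 6 month ENT1-null. The 2 middle groups overlapped, while the youngest WT pair lay above and the oldest ENT1-null pair below all other arrays. Klf9 gave −0.85 ± 0.22 at 2 months (limma adjusted p = 0.0982) and fell by 0.71 ± 0.22 at 6 months (1.63-fold, limma adjusted p = 0.036). Across ages it fell by 0.78 ± 0.15 (limma adjusted p = 0.0124), a call kept under every alternative run. Among settings other than a replicate block, the 6 month call was lost on leaving out replicate 2 of 6 month WT (−0.46) and, at −0.71, on leaving out either array of 6 month ENT1-null or of 2 month WT, or when every probe set was tested.

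Tsc22d3 encodes GILZ, a leucine zipper protein that carries part of the anti-inflammatory action of glucocorticoid. It was at 9.95 and 9.84 in 2 month WT and at 9.25 and 8.36 in 2 month ENT1-null. At 6 months it was at 8.57 and 9.36 in WT and at 8.0 and 7.93 in ENT1-null. The 2 month WT pair stood above and the 6 month ENT1-null pair below all other arrays, and the 2 groups between were widely spread and overlapped. ENT1-null minus WT was −1.09 ± 0.32 at 2 months (limma adjusted p = 0.125), and Tsc22d3 fell by 0.995 ± 0.32 at 6 months (1.99-fold, limma adjusted p = 0.0414). Across ages it fell by 1.04 ± 0.22 (limma adjusted p = 0.0152), which passed under every alternative run. The 6 month call was lost on leaving out replicate 2 of 6 month WT (−0.60), replicate 1 (−1.03) or replicate 2 (−0.96) of 6 month ENT1-null, and, at −0.995, either array of 2 month WT. Among settings other than a replicate block, it was also lost without the filter, when every probe set was tested, or with eBayes trend and robust.

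Fkbp5 encodes FKBP51, a co-chaperone that lowers the receptor's affinity for hormone and so closes a feedback loop. It was at 8.64 and 8.55 in 2 month WT, apart from every other array. It was at 7.85 and 7.10 in 2 month ENT1-null, 6.79 and 7.60 in 6 month WT, and 7.20 and 6.89 in 6 month ENT1-null, and these 3 groups overlapped. ENT1-null minus WT was −1.12 ± 0.30 at 2 months (limma adjusted p = 0.109) and −0.15 ± 0.30 at 6 months (limma adjusted p = 0.721), and the latter turned to 0.25 without replicate 2 of 6 month WT. The difference between the ages, 0.97 ± 0.43, did not pass (limma adjusted p = 0.201), and across ages the value was −0.64 ± 0.27 (limma adjusted p = 0.118), or −0.90 without replicate 1 of 6 month WT (limma adjusted p = 0.0463).

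**Figure D1:**
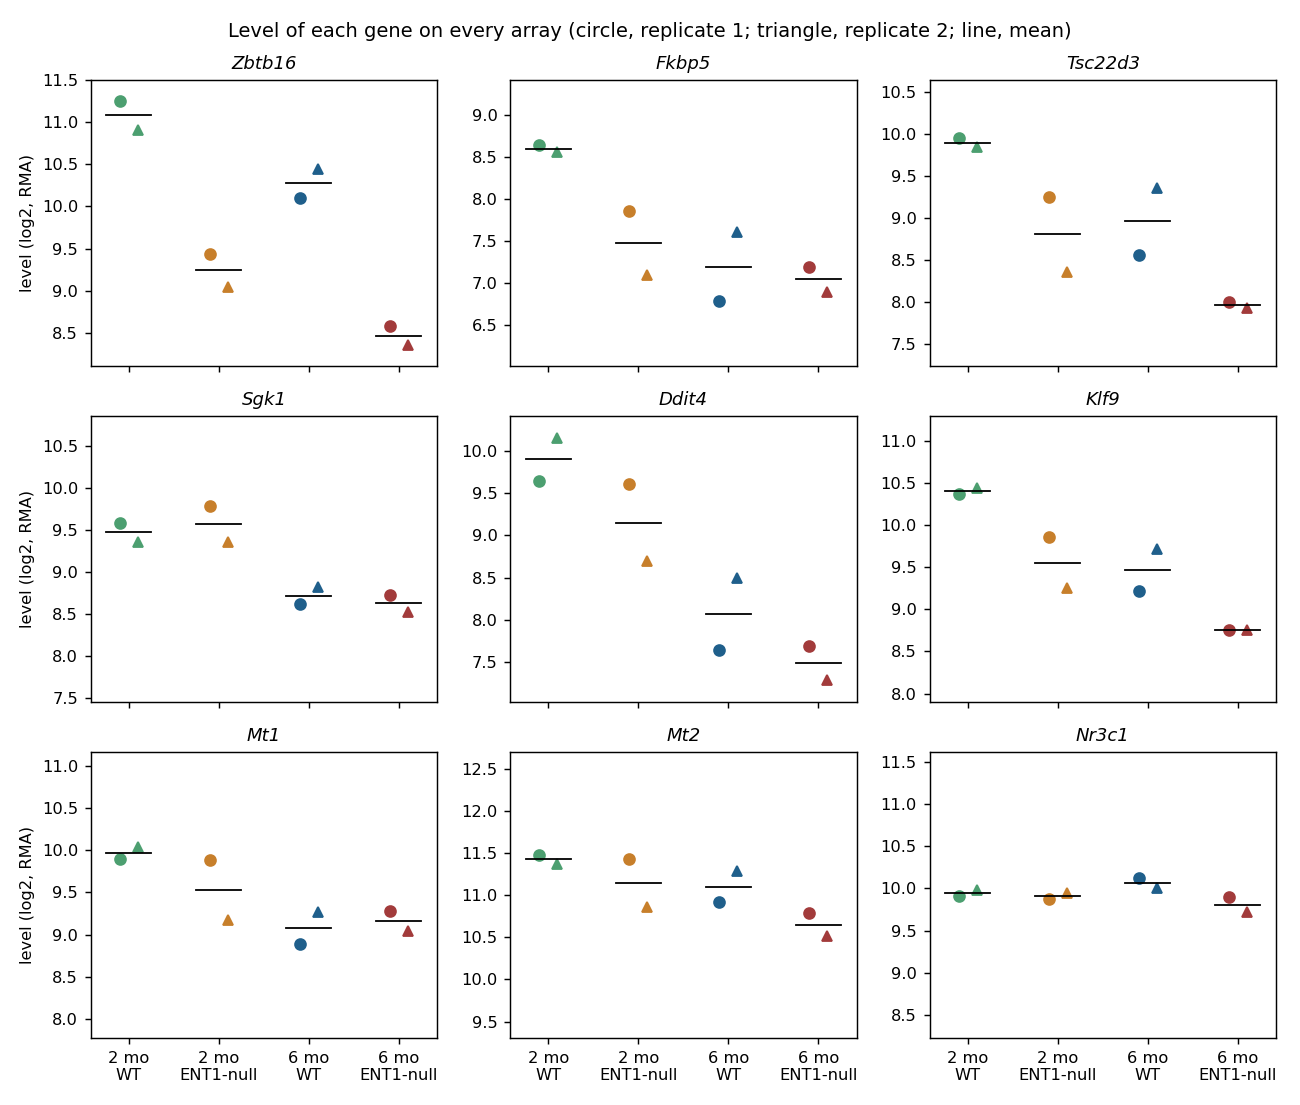
Level of each of the 9 genes on every array (log2, RMA; circles are replicate 1, triangles replicate 2, lines the mean of 2 arrays), with the same 3.4 log2 units shown in each panel. The Zbtb16 arrays of WT lay above those of ENT1-null at both ages, and in 2 month ENT1-null the circle lay above the triangle for every gene but Nr3c1.

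Sgk1, a kinase that regulates ion channels and transporters, was at 9.58 and 9.36 in 2 month WT, 9.78 and 9.36 in 2 month ENT1-null, 8.62 and 8.82 in 6 month WT, and 8.73 and 8.52 in 6 month ENT1-null. Its arrays split by age and overlapped between the genotypes. ENT1-null minus WT was 0.10 ± 0.16 at 2 months (limma adjusted p = 0.767, −0.11 without replicate 1 of 2 month ENT1-null) and −0.09 ± 0.16 at 6 months (limma adjusted p = 0.686, 0.013 without replicate 2 of either 6 month group). Across ages it was 0.01 ± 0.12 (limma adjusted p = 0.976), with the sign turned when quantile normalization was applied again (−0.044).

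Ddit4 encodes REDD1, an inhibitor of mTORC1 that glucocorticoid, low oxygen and ATF4 each induce. It was at 9.65 and 10.15 in 2 month WT, 9.61 and 8.70 in 2 month ENT1-null, 7.64 and 8.49 in 6 month WT, and 7.68 and 7.28 in 6 month ENT1-null. All 4 arrays of 2 months stood above all 4 of 6 months. ENT1-null minus WT was −0.75 ± 0.37 at 2 months (limma adjusted p = 0.316) and −0.58 ± 0.37 at 6 months (limma adjusted p = 0.246), and neither passed. Across ages it was −0.67 ± 0.25 (limma adjusted p = 0.0882), or −0.83 without 2 month ENT1-null replicate 1 (limma adjusted p = 0.0493).

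Mt1 and Mt2 encode metallothioneins, small cysteine-rich proteins that bind zinc and copper and are induced by metals as well as by glucocorticoid. Mt1 was at 9.90 and 10.04 in 2 month WT, 9.89 and 9.17 in 2 month ENT1-null, 8.89 and 9.26 in 6 month WT, and 9.28 and 9.05 in 6 month ENT1-null. Mt2 was at 11.48 and 11.37, 11.43 and 10.86, 10.92 and 11.29, and 10.78 and 10.52 in the same order of groups. In both genes the array order within each of the last 3 groups was the same. Mt1 gave −0.44 ± 0.23 at 2 months (limma adjusted p = 0.351) and 0.08 ± 0.23 at 6 months (limma adjusted p = 0.797), a sign that turned with quantile normalization applied again (−0.030). Mt2 gave −0.28 ± 0.20 (limma adjusted p = 0.492) and −0.45 ± 0.20 (limma adjusted p = 0.117), and across ages −0.37 ± 0.14 (limma adjusted p = 0.0954), or −0.50 without 2 month ENT1-null replicate 1 (limma adjusted p = 0.0223).

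The comparison of genotypes asks whether loss of ENT1 shifts these genes in the annulus of young or of adult mice. Since the members were chosen with earlier results known, their counts and medians beside all genes are descriptive. At 2 months 1 of the 9 was called, Zbtb16, lower in ENT1-null, against 0.683% of all genes tested in either direction and 0.386% called lower. Both ENT1-null arrays lay below both WT arrays in 6 of the 9 (Zbtb16, Fkbp5, Tsc22d3, Ddit4, Klf9 and Mt1), against 33.2% of all genes. The median of the 9 differences was −0.75, against −0.04 over all genes, and 8 of 9 lay below 0. Arrays centred on their medians turned the split of all calls from 46 higher and 60 lower to 96 higher and 65 lower. On leaving out replicate 1 of 2 month WT or replicate 2 of 2 month ENT1-null no gene was called at all, and on leaving out replicate 1 of 2 month ENT1-null or either array of 6 month ENT1-null no member was.

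At 6 months 3 of the 9 were called lower (Zbtb16, Tsc22d3 and Klf9) and none higher, against 38.8% of all genes called, 17.6% lower and 21.2% higher. The arrays did not overlap, with ENT1-null lower, in 5 of the 9 (Zbtb16, Tsc22d3, Klf9, Mt2 and Nr3c1), against 36.8% of all genes. Zbtb16 alone was called on leaving out replicate 2 of 6 month WT, either array of 6 month ENT1-null or either array of 2 month WT. The median of the 9 was −0.45, against −0.03 over all genes. Across both ages the same 3 genes were called lower, against 24.5% of all genes called and 11.7% called lower, and 5 were on leaving out replicate 1 of 2 month ENT1-null. In 1 of the 9, Zbtb16, all 4 WT arrays lay above all 4 ENT1-null arrays, against 10.4% of all genes lower. No member was called for a difference between the ages in the genotype effect (limma, 0 also with eBayes trend and robust), against 4.45% of all genes called. With 9 genes, a count of 0 beside that share says little. At an unadjusted p below 0.05 there were 0 of the 9 members and 4186 of the 15526 genes tested.

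**Figure D2:**
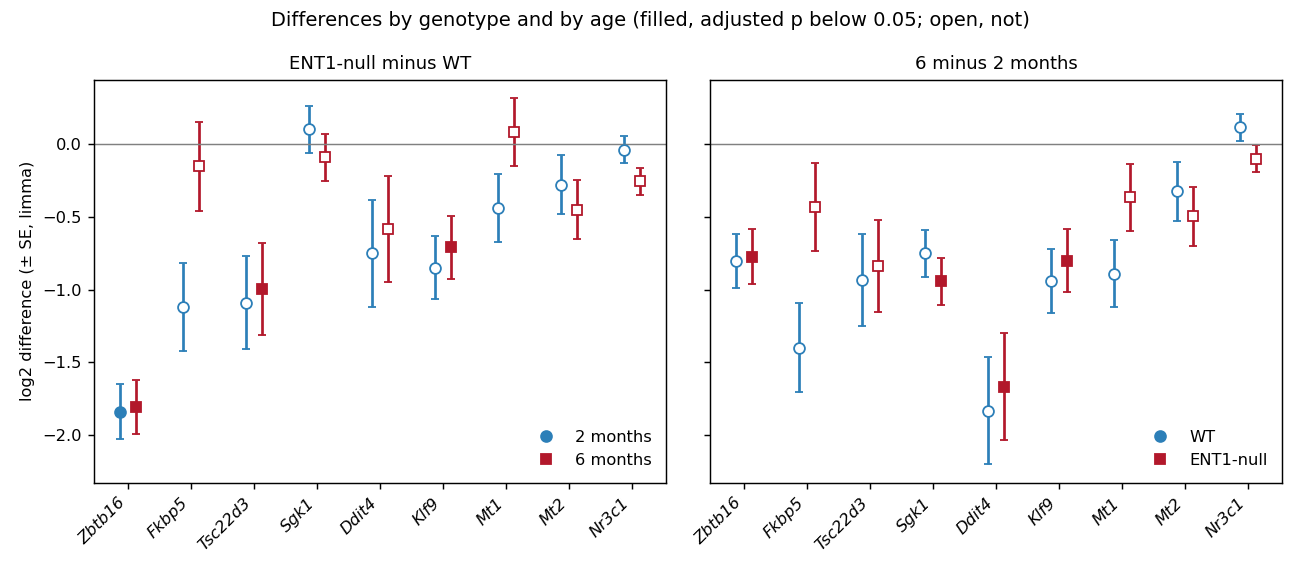
Log2 differences with the SE of the limma fit, by genotype at each age (left) and by age in each genotype (right), with filled marks for adjusted p below 0.05. Zbtb16 lay at −1.84 and −1.81 by genotype, Sgk1 near 0 by genotype and at −0.75 and −0.94 by age, and Ddit4 at −1.84 and −1.67 by age.

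Marrow cell markers differed between the genotypes on the same arrays. The mean level of the 16 neutrophil markers was 8.77 and 9.98 in 2 month WT, 10.69 and 11.01 in 2 month ENT1-null, 10.002 and 8.62 in 6 month WT, and 11.73 and 11.66 in 6 month ENT1-null. At 6 months 16 of 16 neutrophil, 9 of 9 erythroid and 9 of 10 macrophage markers rose in ENT1-null (limma, adjusted p below 0.05, medians 2.56, 1.92 and 1.32). At 2 months the medians were 1.50, 1.28 and 0.67, with 0, 1 and 0 called (limma, 15 of 16, 9 of 9 and 7 of 10 at an unadjusted p below 0.05). Of all genes 0.683% were called at 2 months, and 3008 of 15526 had an unadjusted p below 0.05. The 16 neutrophil calls became 10 without replicate 2 of 6 month WT, 8 without replicate 1 and 9 without replicate 2 of 6 month ENT1-null, and 12 with eBayes trend and robust. Of 14 skeletal muscle markers 12 fell at 6 months (median −2.25). Those 12 became 4 with eBayes trend and robust, 2 without either array of 6 month WT and 1 without replicate 1 of 6 month ENT1-null, and 11 of the 12 calls were lost without some array. Their mean level lay between 7.50 and 10.37 over the arrays. Of 16 annulus and cartilage markers 10 fell and 3 rose at 6 months. Of B cell, T and NK cell, endothelial and adipocyte markers, 6 of 8, 3 of 5, 2 of 8 and 1 of 6 rose at 6 months and none fell. Over all genes 21.2% were called higher and 17.6% lower at 6 months. The part of cell makeup in the members' differences was not tested.

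The comparison of ages asks whether these genes change between young and adult annulus. Here too the counts and medians of the members beside all genes are descriptive. In WT all 9 pairs of groups were apart: 8 members were lower at 6 months, against 35.9% of all genes, and Nr3c1 was higher, against 13.5%. The differences were −1.84 ± 0.37 for Ddit4, −1.40 ± 0.30 for Fkbp5, −0.94 ± 0.22 for Klf9, −0.93 ± 0.32 for Tsc22d3, −0.89 ± 0.23 for Mt1, −0.80 ± 0.19 for Zbtb16, −0.75 ± 0.16 for Sgk1, −0.32 ± 0.20 for Mt2 and 0.12 ± 0.09 for Nr3c1. Their median was −0.89, against −0.06 over all genes. None passed (limma adjusted p between 0.193 and 0.624), and none of the 15526 genes did in this comparison (0% called). At an unadjusted p below 0.05 there were 7 of the 9 members and 2067 of all genes, and eBayes with trend and robust also called 0.

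In ENT1-null all 9 differences by age lay below 0, with a median of −0.77 against 0.00 over all genes. Called lower at 6 months were Sgk1 (−0.94 ± 0.16, limma adjusted p = 0.0073), Ddit4 (−1.67 ± 0.37, adjusted p = 0.0173), Zbtb16 (−0.77 ± 0.19, adjusted p = 0.024) and Klf9 (−0.80 ± 0.22, adjusted p = 0.0359), 4 of the 9, against 22.2% of all genes called and 10.2% called lower. Arrays did not overlap, with 6 months lower, in 6 of the 9, against 29.8% of all genes. The count moved with single arrays: it was 1 (Sgk1, −0.73) without replicate 1 of 2 month ENT1-null and 7 without its replicate 2, and 2 without replicate 1 of 6 month ENT1-null and 0 without its replicate 2 (Sgk1 −0.84, limma adjusted p = 0.051). The comparisons by genotype and by age share arrays, so the values of the members in them are not independent.

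Single arrays stood apart in these genes. In 2 month ENT1-null, 8 of the 9 members were higher in replicate 1 than in replicate 2, and in all 8 the gap was wider than in 90% of the genes tested (0.33). The gap was 0.91 for Ddit4, 0.89 for Tsc22d3, 0.75 for Fkbp5, 0.72 for Mt1, 0.62 for Klf9, 0.57 for Mt2, 0.42 for Sgk1 and 0.40 for Zbtb16, while Nr3c1 gave −0.07. In 6 month WT the same 8 genes were higher in replicate 2, and in 7 of them the gap passed the 90% level (0.31), with −0.85 for Ddit4, −0.81 for Fkbp5, −0.79 for Tsc22d3 and −0.50 for Klf9 (replicate 1 minus replicate 2). In 2 month WT 5 members were higher in replicate 1 and 4 in replicate 2, with gaps past the 90% level in Ddit4 (−0.51) and Zbtb16 (0.35). In 6 month ENT1-null 8 were higher in replicate 1, but 1 gap (Ddit4, 0.40) passed that level.

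**Figure D3:**
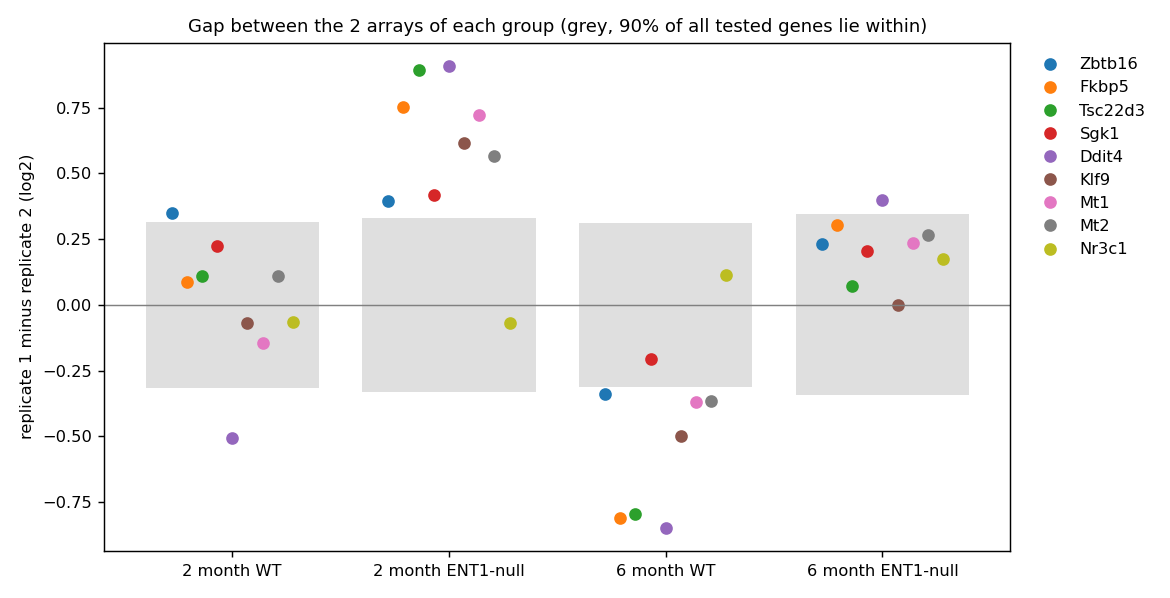
Replicate 1 minus replicate 2 (log2) for each of the 9 genes in each group, with the grey band holding 90% of all tested genes. In 2 month ENT1-null 8 genes lay above the band and in 6 month WT 7 lay below it, with Nr3c1 inside it in every group.

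The other lists were read on the same arrays. The mean level of 19 immediate early genes, which rise within minutes of stress or handling, was 9.05 and 9.31 in 2 month ENT1-null and 9.33 and 9.08 in 6 month WT, in both groups lower on the array where the 8 members were higher. Neutrophil markers in those pairs were at 10.69 and 11.01, and at 10.002 and 8.62, also lower on the array with the higher members. Skeletal muscle markers were at 8.91 and 10.37, and at 10.36 and 10.19. Per1, a clock gene with a glucocorticoid response element, and Cebpd, an early glucocorticoid target, had gaps of 0.65 and 0.90 in 2 month ENT1-null and of −0.54 and −0.51 in 6 month WT, in the direction of the 8 members. Dusp1, Errfi1 and Pdk4 did not share both directions: Dusp1, a phosphatase that the receptor also induces, had gaps of −0.02 and 0.15 in these groups, Errfi1 of 0.12 and 0.09, and Pdk4 of −0.48 and −0.36. The mean level of the 25 other glucocorticoid targets was 8.83 and 8.78 in 2 month ENT1-null and 8.64 and 8.77 in 6 month WT. The part of any of these in the members' gaps was not tested.

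The list of receptor, hormone supply and chaperone genes held Serpina6, corticosteroid-binding globulin. Serpina6 was at 9.13 and 8.65 in 2 month WT, 6.89 and 6.81 in 2 month ENT1-null, 9.14 and 9.76 in 6 month WT, and 6.26 and 6.62 in 6 month ENT1-null. Every WT array stood above every ENT1-null array. It fell by 2.04 ± 0.24 at 2 months (limma adjusted p = 0.0369) and by 3.01 ± 0.24 at 6 months (limma adjusted p = 0.000383). The 2 month call was lost on leaving out replicate 1 of 2 month WT or any ENT1-null array. Over all arrays left out in turn, the 2 month difference lay between −2.28 and −1.80. Hsd11b1, which turns inert 11-dehydrocorticosterone into active corticosterone inside cells, was at 6.28 and 6.79, 7.26 and 7.36, 6.89 and 6.59, and 8.07 and 8.21 in the same groups. It gave 0.78 ± 0.17 at 2 months (limma adjusted p = 0.077) and rose by 1.40 ± 0.17 at 6 months (limma adjusted p = 0.000915). Nr3c2, the mineralocorticoid receptor, which also binds corticosterone, gave −0.13 ± 0.08 at 2 months (limma adjusted p = 0.419) and fell by 0.51 ± 0.08 at 6 months (limma adjusted p = 0.00234). The 6 month calls of these 3 genes held without each array in turn. Of the 14 receptor, supply and chaperone genes tested, the other 11 were not called at 6 months, among them the co-chaperone Fkbp4 (0.0076, limma adjusted p = 0.967). Over all genes 38.8% were called at 6 months. Hormone levels were not among the values read, and the part of these genes in the members' differences was not tested.

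Of 25 other glucocorticoid targets, 0 were higher and 1 lower at 2 months (median −0.15, 9 at an unadjusted p below 0.05 and 4 called with eBayes trend and robust). Of all 15526 genes 0.683% were called at 2 months. There 3008 had an unadjusted p below 0.05, and 259 were called with eBayes trend and robust. At 6 months 5 were higher and 7 lower (median −0.13) and 13 were not called, against 21.2% of all genes called higher and 17.6% lower, 38.8% in all. Of the 12 calls 6 were lost on leaving out some array. The 1 gene lower at 2 months, named for that call, was Lpin1, a phosphatidate phosphatase (−0.72 ± 0.11, limma adjusted p = 0.0443), and the call was lost on leaving out any 2 month array or either array of 6 month ENT1-null (−0.80 to −0.63). Those lower at 6 months included Pdk4, the pyruvate dehydrogenase kinase of fasting (−1.06 ± 0.19, limma adjusted p = 0.00401), Klf15 (−0.90 ± 0.21, adjusted p = 0.0129), Bcl6, a transcriptional repressor (−0.65 ± 0.12, adjusted p = 0.00369), Dusp1 (−0.57 ± 0.13, adjusted p = 0.0129) and Errfi1, an inhibitor of the EGF receptor (−0.47 ± 0.08, adjusted p = 0.00395). The call of Klf15 was lost on leaving out replicate 2 of 6 month WT or replicate 1 of 6 month ENT1-null (−1.08 to −0.71 over all arrays left out). That of Dusp1 was lost on leaving out replicate 1 of 6 month WT or replicate 2 of 6 month ENT1-null (−0.66 to −0.48 over all arrays left out). Those higher included Il1r2, a decoy receptor for interleukin 1 that neutrophils also express (1.39 ± 0.22, adjusted p = 0.00238), Anxa1, annexin A1 (0.97 ± 0.10, adjusted p = 0.000576), and Foxo3 (0.78 ± 0.09, adjusted p = 0.000669). Cdkn1c, a cell cycle inhibitor, was also lower (−0.46) and Glul, glutamine synthetase, higher (0.46), both calls lost on leaving out any 6 month array, and Pik3r1 was higher (0.27), a call lost on leaving out any of the 8 arrays. Per1 gave −0.50 at 2 months (limma adjusted p = 0.311) and −0.71 at 6 months (adjusted p = 0.0516), and Cebpd −0.47 and 0.024 (adjusted p = 0.394 and 0.953). By age 0% of all genes were called in WT and 22.2% in ENT1-null, with 10.2% called lower there. In the comparison by age in WT the list's median was −0.35, and in ENT1-null −0.22 with 3 higher and 4 lower (2 and 2 without replicate 2 of 6 month ENT1-null), Per1 among the latter (−1.11 ± 0.24, limma adjusted p = 0.0171), a call lost on leaving out replicate 1 of 2 month ENT1-null (−0.78) or either array of 6 month ENT1-null.

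**Figure D4:**
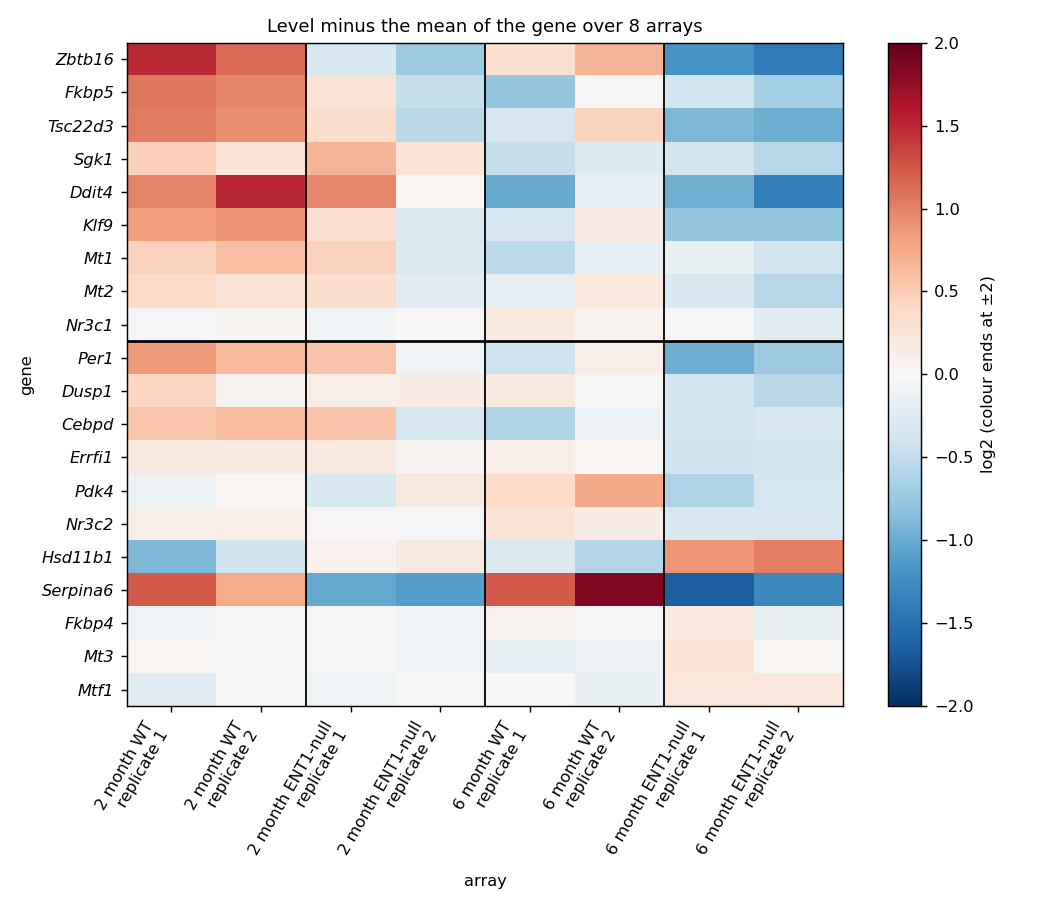
Level of the 9 members (above the line) and of 11 related genes (below it) on each array, as the difference from the mean of the gene over 8 arrays (log2, red higher, blue lower, colour ending at ±2). Serpina6 and Zbtb16 were higher on every WT array than on every ENT1-null array, and Hsd11b1 was lower.

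The counts at 6 months of the lists in this paragraph stand beside 38.8% of all genes called, 17.6% lower and 21.2% higher. Those at 2 months stand beside 0.683% of all genes called and 3008 of 15526 at an unadjusted p below 0.05. None of 10 genes of zinc handling was called at 2 months (limma, median −0.09, 1 at an unadjusted p below 0.05 and 0 with eBayes trend and robust). At 6 months 4 were lower and 1 higher, a count of 5 that became 3 or 2 on leaving out any array. Lower were among others the zinc exporter Slc30a4 (−0.71 ± 0.09, adjusted p = 0.00109) and the importer Slc39a14 (−0.67 ± 0.11, adjusted p = 0.00329). Higher was Mt3, the metallothionein of brain (0.30 ± 0.10, adjusted p = 0.0469), a call lost on leaving out any array but replicate 2 of 6 month ENT1-null. Mtf1, the factor that binds metal response elements, gave 0.07 and 0.28 (adjusted p = 0.739 and 0.0656). Of 13 hypoxia and ATF4 genes, other routes to Ddit4, 7 were lower and 2 higher at 6 months (median −0.58), among the former Bnip3, a mitophagy receptor (−1.35 ± 0.22, adjusted p = 0.00284), Adm, adrenomedullin (−1.17 ± 0.17, adjusted p = 0.00159) and Pdk1 (−0.71 ± 0.09, adjusted p = 0.00112), and among the latter Asns, asparagine synthetase (1.34 ± 0.13, adjusted p = 0.00045). By genotype at 6 months Ddit4 itself gave −0.58. In the comparison by age in WT that list had a median of −0.034 (−0.95 to 0.47), where Ddit4 gave −1.84. By age in ENT1-null its median was −0.19 (−1.45 to 0.77) with 1 higher and 4 lower, where Ddit4 gave −1.67. Of all genes 22.2% were called by age in ENT1-null and 10.2% called lower. The part of these routes in the level of Ddit4 was not tested. Of 19 immediate early genes 6 were lower and 1 higher at 6 months, 7 calls that became 4 without replicate 1 of 6 month WT or replicate 2 of 6 month ENT1-null, with Klf4 (−1.35 ± 0.10, adjusted p = 0.000383) and Nr4a2 (−1.26 ± 0.25, adjusted p = 0.00639) lower. Of 16 relatives of the members in sequence, none was called at 2 months (limma, 1 at an unadjusted p below 0.05 and 0 with eBayes trend and robust), and 2 were lower and 2 higher at 6 months, with Zbtb20 lower (−0.93 ± 0.11, adjusted p = 0.000784). Of these 4 calls 3 were lost on leaving out some array, and that of Zbtb20 was kept without each.

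Likeness of pattern was measured as the root mean square distance of log2 values over the 8 arrays, after each gene was centred on its own mean. The members nearest to each other were Tsc22d3 and Klf9 (0.17), Mt1 and Mt2 (0.24) and Fkbp5 and Klf9 (0.25), and the farthest were Ddit4 and Nr3c1 (0.99). Among 15525 genes, those nearest to Zbtb16 were 4933400C23Rik (0.21), Angptl7 (0.24) and Gpld1 (0.30). Nearest to Klf9 were Mir1192 (0.12), whose locus lies within the span of Klf9 so that its probe set may read the same transcript, the clock gene Per1 (0.17) and Tiparp (0.17). Nearest to Tsc22d3 were Mir1192 (0.17), F3, tissue factor (0.17), and Klf9. Nearest to Fkbp5 were Klf9, Map3k6 (0.29) and Mir1192 (0.29), and nearest to Ddit4 were Slc38a4 (0.42), Rasd1 (0.44) and Pank1 (0.46).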

How the data were processed

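RNA of 8 pools was measured on Affymetrix arrays from 200 ng of total RNA each, per the labels' protocols. The deposited values are log2 levels made by the authors with RMA, per the submitters' processing notes. No source used here gives the RMA version or the array's genome build. Of 41345 probe sets, 23521 had 1 gene symbol, 1814 several and 16010 none. The probe set with the highest mean stood for a gene. Genes under the 30th percentile of mean level (6.21) were left out. limma 3.58.1 in R 4.3.3 was fitted to 15526 genes, with 4 group means (4 residual degrees of freedom) or with genotype and age (5), with Benjamini-Hochberg adjustment in each comparison. The members and lists were chosen with earlier results of these data known. Besides the members, 12 genes were named by a fixed rule (Slc30a1 is not analysed here), up to 3 called genes per direction of a list, and the 3 nearest genes of members whose group means spanned over 1. The number of arrays limits the precision. On simulated data with 200 changed genes, 80% of changes of 1 (log2) and 98% of changes of 2 were recovered at 2 months, and 85% and 94% at 6 months. The simulated noise was normal and independent between genes and arrays, without the shifts that members shared on single arrays here. Recovery on the real arrays may therefore be lower. Fkbp5 (−1.12) and Tsc22d3 (−1.09) were not called at 2 months, but whether they truly changed is not known, so they do not measure recovery.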

Additional observations from a re-analysis of the deposited data

How the results depend on the processing

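Over the alternatives, 1 choice at a time, no member's call at 2 or 6 months turned its direction. The count of members called at 2 months (1) was 0 with all probe sets, with only the groups compared and with a replicate block, and 0 to 1 on leaving out each array. At 6 months (3) it was 1 with all probe sets and 1 with a replicate block, and 1 to 3 on leaving out each array. By age in ENT1-null (4) it was 1 with all probe sets and 0 to 7 on leaving out each array, by age in WT 0 throughout, and across ages (3) 3 to 5. With the replicate block the calls of Zbtb16 at 2 months (adjusted p = 0.0602), Tsc22d3 (0.061) and Klf9 (0.055) at 6 months and Klf9 by age in ENT1-null (0.057) were lost, and no other member's was. The replicate numbers do not pair the pools per the labels, and the correlation of deviations of same-numbered arrays lay between −0.39 and 0.41. With the numbers of the 6 month WT arrays crossed in the replicate block, chosen after seeing the data, 4 members were called at 2 months, 4 at 6 months, 6 by age in ENT1-null and 4 across ages, and among all genes 950 at 2 months, 1719 for the difference between ages and 3 by age in WT.

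Applying quantile normalization again turned the sign of Mt1 at 6 months (−0.030), of Zbtb16 in the difference between ages (−0.044) and of Sgk1 across ages (−0.044). On leaving out each array, uncalled values crossed 0 at 2 months for Sgk1 (−0.11 to 0.31) and Mt2 (−0.56 to 0.0039), and at 6 months for Fkbp5 (−0.56 to 0.25), Sgk1 (−0.19 to 0.013) and Mt1 (−0.10 to 0.27). They crossed 0 across ages for Sgk1 (−0.10 to 0.070) and Mt1 (−0.30 to 0.020), and in the difference between ages for Zbtb16 (−0.17 to 0.23), Tsc22d3 (−0.35 to 0.54), Ddit4 (−0.29 to 0.62), Klf9 (−0.17 to 0.45), Mt2 (−0.46 to 0.11) and Sgk1 (−0.40 to 0.017).

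Among all genes the 106 calls at 2 months were 29 with no filter, 161 with centred arrays, 259 with eBayes trend and robust, 1 with a replicate block, 0 with only the groups compared or all probe sets, and 0 to 358 on leaving out each array. The 6022 at 6 months were 3670 without 6 month WT replicate 2, the 3442 by age in ENT1-null were 2251 with all probe sets and 1519 to 3160 on leaving out each array, and the 3809 across ages were 1390 to 4343. The 691 for the difference between ages (398 higher, 293 lower) were 11 with no filter, 0 with all probe sets, 353 with a replicate block, 1102 with eBayes trend and robust and 0 to 319 on leaving out each array, and quantile normalization applied again gave 299 higher and 407 lower. Fewer arrays or more tested features are part of these settings, and the cause of each change was not tested further.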
